A study of Mus musculus with 9 samples.

Results

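The clustered protocadherins are cell-surface adhesion proteins of the cadherin superfamily, encoded side by side in an alpha, a beta and a gamma cluster. In the counts of 24594 genes, 58 carried a symbol of these clusters (Pcdha, Pcdhac, Pcdhb, Pcdhga, Pcdhgb or Pcdhgc), and all were taken by symbol alone, without regard to their values. They comprised 14 alpha members (12 alternative isoforms and 2 C-type isoforms), 22 beta members and 22 gamma members (12 of subfamily A, 7 of subfamily B and 3 of the C type). In the RefSeq annotation of the mouse build GRCm38, all 58 lay on chromosome 18, from position 36930285 to 37841873, with the alpha cluster ending at 37188897, the beta cluster spanning 37264998 to 37521419 and the gamma cluster starting at 37661775.

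Each alpha or gamma transcript starts in a variable exon of its own, which encodes the extracellular cadherin repeats and the membrane span, and is spliced to constant exons shared by the whole cluster, which encode a common cytoplasmic tail. Beta genes lack such shared constant exons. In mouse neurons each cell transcribes a small and largely random subset of the alternative isoforms, promoter by promoter, under DNA methylation and looping by CTCF and cohesin. The proteins pair on the cell surface and bind the same isoforms on neighbouring cells, which lets a neuron tell its own branches from those of others. The C-type isoforms stand outside this random choice.

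The transcripts were measured in BG2 cells, a line derived from a mammary tumour of MMTV-NIC mice, in which the MMTV promoter drives the oncogene Neu together with Cre in mammary epithelium, so that all 3 groups carry this transgene. The groups were Sox10 knockout clone 1, Sox10 knockout clone 2 and wild-type BG2 cells as a bulk population, called the control here, whose library names read NTC. The clones were grown out of a population edited by CRISPR with guides against exon 3 of Sox10, a transcription factor of the neural crest lineage that mammary cells also use, and each knockout group is a single clone. Every group had 3 libraries of polyA-enriched, stranded RNA that the labels call technical replicates, so the p-values below reflect the spread among libraries and not among cultures or clones.

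Library totals ranged from 65805296 to 83282841 counts. Sox10 had 0, 6 and 0 counts in clone 1, 0, 2 and 2 counts in clone 2, and 16660, 21437 and 26038 counts in the control. Replicate 1 parted from replicates 2 and 3 in every group on the third principal component. Levels are given in CPM (counts relative to the TMM-scaled library size) as mean ± SD of 3 libraries, and a gene was called at an adjusted p under 0.05 (edgeR quasi-likelihood test, Benjamini-Hochberg over 13928 tested genes). Of 8 tested mammary epithelial markers, 3 were called higher and 5 lower in clone 1, and 2 higher and 5 lower in clone 2. The shares over all tested genes were 37.9% higher and 38.6% lower in clone 1, and 37.3% and 37.1% in clone 2. Epcam, an epithelial surface protein, averaged 0.0341 CPM in clone 1, 0 CPM in clone 2 and 659 CPM in the control, Elf5, a luminal transcription factor, 0.285, 0.214 and 43.3 CPM in the same order, and Cdh1, the epithelial cadherin, 43.1, 16.2 and 341 CPM. The basal keratin Krt14, named after its values were seen as was Erbb2, averaged 10.1 CPM in clone 1, 135 CPM in clone 2 and 3.80 CPM in the control, and Erbb2, a receptor tyrosine kinase, 1034 CPM in clone 1, 1500 CPM in clone 2 and 553 CPM in the control. Whether reads of the Neu transgene were counted under Erbb2 was not tested. Of 14 neuronal markers, 4 could be tested and 6 (Syt1, Snap25, Stmn2, Nefl, Elavl4 and Dcx) had no count in any library. The neural adhesion molecule Ncam1 averaged 88.8 CPM in clone 1, 116 CPM in clone 2 and 11.7 CPM in the control, and Rbfox3, a neuronal splicing factor, 0.0483, 2.15 and 0 CPM. Both were called higher in both clones. Rbfox3 had enough counts for a test in clone 2 alone. Its clone 1 libraries stood at 0.0303, 0 and 0.115 CPM, so its call in clone 1 rests on values near the floor. Map2, a microtubule protein of dendrites, was called lower in both clones, at 39.2 CPM in clone 1, 42.0 CPM in clone 2 and 140 CPM in the control. With these opposite changes, the summed level of the neuronal list was 126 to 131 CPM in clone 1, 151 to 166 CPM in clone 2 and 141 to 164 CPM in the control. The summed level of 8 fibroblast markers was 217 to 223 CPM in clone 1, 136 to 150 CPM in clone 2 and 30.3 to 35.9 CPM in the control, with Lum and Thy1 at 0 throughout and most of the sum from Pdgfra, a growth factor receptor, at 172, 107 and 7.83 CPM. This list moved the same way as the gamma cluster below, and its part in the results was not tested. Of 8 endothelial and immune markers, 2 were tested (Cd68 at 9.80, 38.6 and 10.1 CPM and Kdr at 16.2, 0.484 and 0.0186 CPM), and the list summed to 24.4 to 28.2 CPM in clone 1, 38.2 to 40.2 CPM in clone 2 and 7.02 to 11.8 CPM in the control.

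Gamma transcripts were several times more abundant in both knockout clones than in the control, beta transcripts were most abundant in clone 1, and alpha transcripts were all but undetected. Members of the 3 clusters together took 0.0349, 0.0365 and 0.0385% of the counts in clone 1, 0.0302, 0.0329 and 0.0325% in clone 2, and 0.00651, 0.00693 and 0.00788% in the control. The summed gamma level was 366 ± 21.98 CPM in clone 1, 317 ± 14.4 CPM in clone 2 and 69.4 ± 9.11 CPM in the control, which is 5.27 and 4.56 times the control. Without Pcdhgc3, which held most of the gamma counts, the sum was 32.5 ± 1.94 CPM in clone 1, 23.2 ± 1.66 CPM in clone 2 and 2.73 ± 0.248 CPM in the control, or 11.9 and 8.51 times the control. No library of a clone overlapped the control in either sum. In these bulk libraries, more cells with a transcript and more transcript per cell cannot be told apart.

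**Figure D1:**
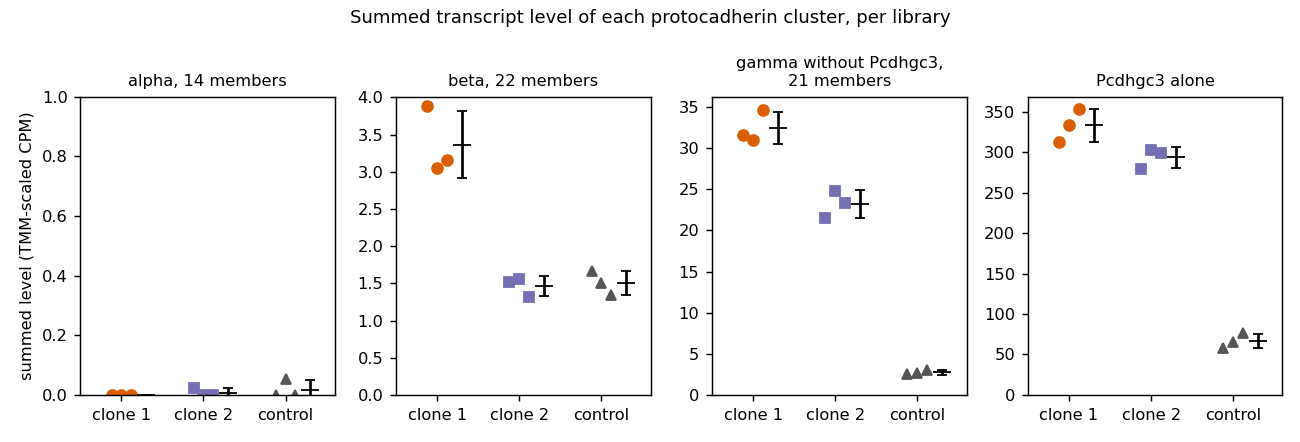
Summed level of each cluster in each library (vertical axes, TMM-scaled CPM, each panel with its own scale) for Sox10 knockout clone 1, clone 2 and the wild-type control; points are libraries and bars show the mean ± SD of 3. Gamma members other than Pcdhgc3 averaged 32.5 CPM in clone 1, 23.2 CPM in clone 2 and 2.73 CPM in the control, and the beta sums of clone 2 lie at those of the control.

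A test was possible for 20 of the 58 members, since 38 had too few counts, among them 14 with no count in any library. Against the control, 17 of the 20 were called higher and 0 lower in clone 1, where 76.5% of all tested genes were called, 37.9% higher and 38.6% lower. In clone 2, 13 were called higher and 1 lower, where 74.4% of all tested genes were called, 37.3% higher and 37.1% lower. The same 13 were higher in both clones (28.7% of all tested genes), 0 were lower in both (29.4%) and 0 were called in opposite directions (4.79%). The clones share the control libraries, so these comparisons are not independent of each other. For 7 of the 20, all 3 control libraries lay above the count filter: Pcdhb17, Pcdhb22, Pcdhgb2, Pcdhgb7, Pcdhgb8, Pcdhgc3 and Pcdhgc4. The other 13 depended on libraries of the clones to pass the filter, which favours members that are higher there, so their calls add no support to a shared direction.

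**Figure D2:**
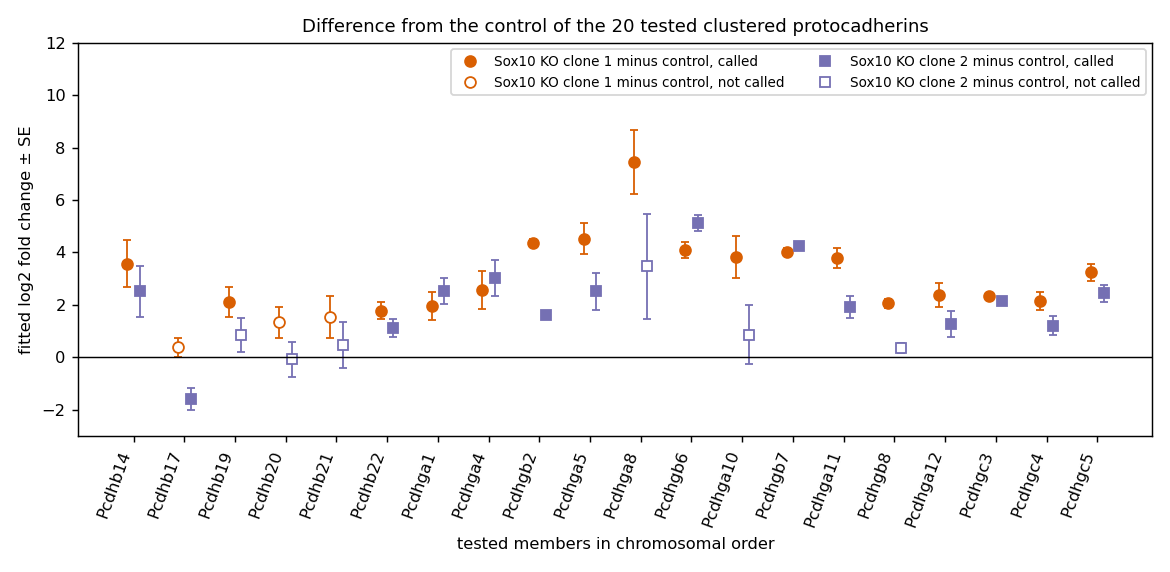
Fitted log2 fold change ± SE against the control (vertical axis) for the 20 tested members in chromosomal order, with circles for clone 1 and squares for clone 2; filled symbols were called at an adjusted p under 0.05. All but 1 of the called values lie above 0, the exception being Pcdhb17 in clone 2. Of the 20 members, 13 depended on libraries of the clones to pass the count filter, which favours values above 0. The values of Pcdhga8, which had no count in the control, depend on the prior count and are no measured size.

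The alpha cluster was all but undetected at this depth. Of its 14 members, 12 had no count in any of the 9 libraries, including both C-type isoforms, Pcdhac1 and Pcdhac2, of which Pcdhac2 serves the spacing of serotonergic axons in mice. Pcdha10 had 2 counts in replicate 1 of clone 2 and Pcdha9 had 4 counts in replicate 2 of the control. Over all libraries the alpha cluster had 6 counts, the beta cluster 1391 and the gamma cluster 168242. A count of 0 in a library allows a level of up to 3 counts, which is 0.0360 to 0.0456 CPM here. Most low counts in these data are even, as when both mates of a pair are counted, and a floor of 3 read pairs lies higher.

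The beta cluster was transcribed at a low level, with Pcdhb22 and Pcdhb17 as its main products. The summed beta level was 3.36 ± 0.451 CPM in clone 1, 1.46 ± 0.130 CPM in clone 2 and 1.503 ± 0.157 CPM in the control. Clone 1 lay above both other groups without overlap, and the libraries of clone 2 overlapped those of the control. Between 12 and 16 of the 22 beta members had a count in a library of clone 1, 9 to 11 in clone 2 and 8 to 13 in the control, and Pcdhb1 and Pcdhb6 had none in any library. The 6 members that could be tested, Pcdhb14, Pcdhb17, Pcdhb19, Pcdhb20, Pcdhb21 and Pcdhb22, all lie in the stretch of the cluster nearest to the gamma genes. Of these, 3 were called higher in clone 1 (Pcdhb14, Pcdhb19 and Pcdhb22), 2 were called higher in clone 2 (Pcdhb14 and Pcdhb22) and 1 was called lower in clone 2 (Pcdhb17). Among all tested genes, 37.9% were called higher in clone 1, and 37.3% higher and 37.1% lower in clone 2. All but Pcdhb17 and Pcdhb22 depended on libraries of the clones to pass the filter, which favours members that are higher there.

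Pcdhb22 had 80, 64 and 88 counts in clone 1, 65, 64 and 36 counts in clone 2, and 14, 30 and 28 counts in the control. Every library of either clone lay above every control library. Its log2 fold change was 1.78 ± 0.33 (SE) in clone 1, with an adjusted p of 0.00043, and 1.12 ± 0.34 in clone 2, with an adjusted p of 0.0105 in edgeR's quasi-likelihood test. The call in clone 2 was lost when the first library of every group was left out (log2 fold change 0.79, adjusted p 0.0747).

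Pcdhb17 had 58, 56 and 46 counts in clone 1, 28, 6 and 12 counts in clone 2, and 46, 42 and 42 counts in the control. It was the single member called lower than the control: all 3 libraries of clone 2 lay below all libraries of the other groups. Its log2 fold change against the control was 0.38 ± 0.35 in clone 1 (adjusted p 0.347) and -1.59 ± 0.41 in clone 2 (adjusted p 0.004, edgeR quasi-likelihood), which was -2.30 without replicate 1 of clone 2. Pcdhb17 was thus the leading beta transcript of the control, at 38.8 ± 1.10% of the beta counts there, whereas it held 22.5 ± 1.57% in clone 1 and 12.99 ± 8.65% in clone 2. Pcdhb22 led in both clones, with 32.9 ± 6.43% of the beta counts in clone 1, 46.9 ± 10.5% in clone 2 and 21.6 ± 8.22% in the control. Per kilobase of exon in the GENCODE annotation, Pcdhb22 and Pcdhb17 held 25.8% and 24.8% of the beta total in clone 1. These exon lengths, 6609 and 4660 bases, exceed the RefSeq spans of the genes (37518353 to 37521419 and 37485021 to 37488290). The annotation behind the counts is not stated, so this scale does not settle the order of the 2 members in clone 1.

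The other beta members with a test were named after their values were seen. Pcdhb14 had 18, 9 and 21 counts in clone 1, 8, 4 and 14 counts in clone 2, and 0, 0 and 4 counts in the control. Clone 1 did not overlap the control, and the lowest library of clone 2 equalled the highest control library. Summed over libraries, its ratio to the control was 12.6 in clone 1 (95% counting interval 3.12 to 110) and 6.14 in clone 2 (1.39 to 56.1). Its control counts all came from replicate 3, so without that library the control is at 0. Its call in clone 2 (adjusted p 0.0362, edgeR) was lost in 5 of 16 alternative analyses, among them those without replicate 1 or 3 of clone 2 and those without replicate 1 or 2 of the control, where the adjusted p was 0.0512, 0.135, 0.0955 and 0.106 and the log2 fold change lay between 1.98 and 2.61. Pcdhb19 had 18, 22 and 19 counts in clone 1, 2, 12 and 13 counts in clone 2, and 6, 4 and 4 counts in the control, with a log2 fold change of 2.12 ± 0.58 in clone 1 (adjusted p 0.00583) and 0.86 ± 0.64 in clone 2 (adjusted p 0.247). Without replicate 1 of clone 2 this second value was 1.35 with an adjusted p of 0.0358. Pcdhb20 and Pcdhb21 were not called in any of the 3 comparisons. Their log2 fold changes in clone 1 were 1.34 ± 0.60 and 1.54 ± 0.79, and leaving out replicate 1 of the control raised that of Pcdhb21 to 3.47 (adjusted p 0.00465), while Pcdhb20 passed without replicate 3 of clone 1 (1.66, adjusted p 0.031) or replicate 3 of clone 2 (1.34, adjusted p 0.0499).

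In the gamma cluster the C-type isoform Pcdhgc3 exceeded every other member by a wide margin in all groups. Pcdhgc3 is known to promote dendrite branching in mouse cortical neurons and to bind Axin1, a scaffold of Wnt signalling. It had 313, 333 and 354 CPM in clone 1, 279, 302 and 299 CPM in clone 2, against 58.5, 65.5 and 76.1 CPM in the control. The lowest clone library thus stood well above the highest control library. The log2 fold change was 2.32 ± 0.09 in clone 1 (adjusted p 6.9e-10) and 2.14 ± 0.09 in clone 2 (adjusted p 1.4e-09), or 4.995-fold and 4.398-fold in the same order. Per kilobase of variable exon, Pcdhgc3 reached 130 CPM in clone 1, 114 CPM in clone 2 and 26.0 CPM in the control. That was 28.8 times the next gamma member in clone 1 (Pcdhgb2), 28.3 times in clone 2 (Pcdhgb7) and 93.1 times in the control (Pcdhgb8).

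The other C-type gamma isoforms were rare and higher in both clones. Pcdhgc5, an isoform of the postnatal mouse brain, had 94, 68 and 70 counts in clone 1, 50, 53 and 47 counts in clone 2, and 6, 8 and 12 counts in the control. The groups did not overlap. Its log2 fold change was 3.24 ± 0.31 in clone 1 (adjusted p 2.2e-06) and 2.44 ± 0.32 in clone 2 (adjusted p 3.4e-05). Pcdhgc4, the gamma isoform on which the survival of mouse neurons depends and a member named after its values were seen, had 72, 72 and 48 counts in clone 1, 47, 42 and 23 counts in clone 2, and 10, 16 and 20 counts in the control. Its log2 fold change was 2.14 ± 0.35 in clone 1 (adjusted p 0.000161) and 1.20 ± 0.36 in clone 2 (adjusted p 0.0107), and the call in clone 2 was lost without the first library of each group (0.86, adjusted p 0.101).

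**Figure D3:**
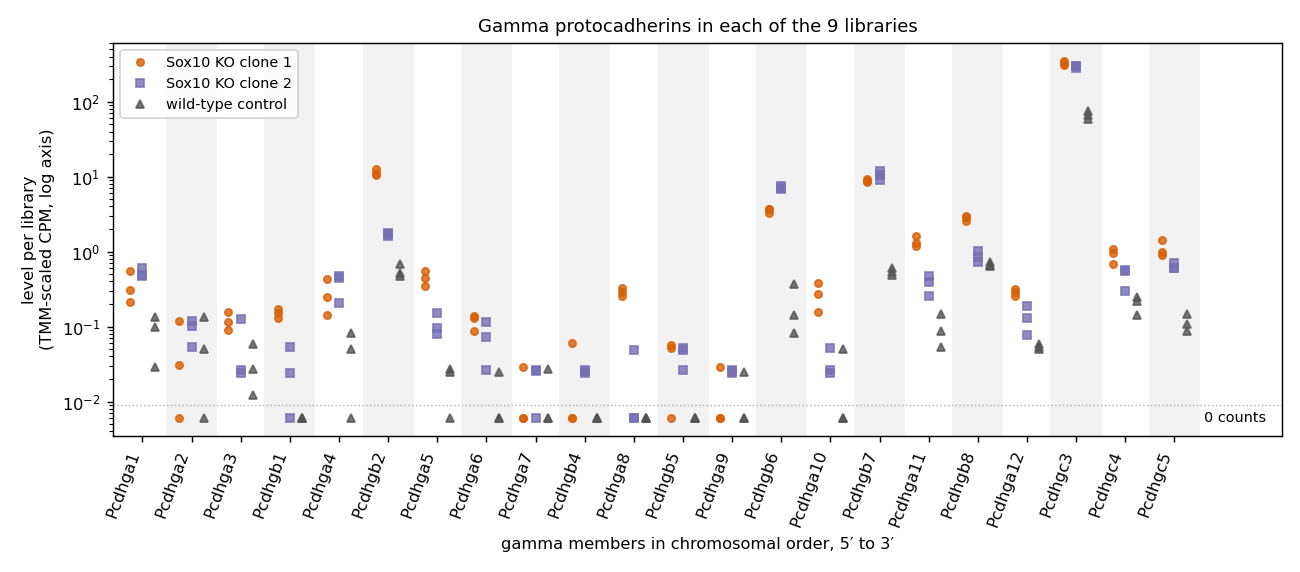
Level of each of the 22 gamma members in each library (vertical axis, TMM-scaled CPM, log scale; members in chromosomal order along the horizontal axis), with circles for clone 1, squares for clone 2 and triangles for the control; libraries without a count sit below the dotted line. Pcdhgc3 stands at 279 to 354 CPM in the clones and 58.5 to 76.1 CPM in the control, and the B isoforms Pcdhgb2, Pcdhgb6 and Pcdhgb7 come next in the clones.

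Of the 7 B isoforms, 4 could be tested. All 4 were called higher in clone 1 and 3 were called higher in clone 2, where 37.9% and 37.3% of all tested genes were called higher. Among these, Pcdhgb6 depended on libraries of the clones to pass the filter, which favours a higher value there. The B sum was 26.9 ± 2.00 CPM in clone 1, 20.3 ± 1.80 CPM in clone 2 and 1.97 ± 0.131 CPM in the control. Pcdhgb7 had 8.64, 8.45 and 9.43 CPM in clone 1, 9.06, 11.8 and 10.6 CPM in clone 2, against 0.491, 0.608 and 0.531 CPM in the control. Both clones lay far above the control, at a log2 fold change of 4.02 ± 0.15 for clone 1 (adjusted p 4.5e-10) and of 4.26 ± 0.15 for clone 2 (adjusted p 2.8e-10).

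Pcdhgb6 had 3.65, 3.24 and 3.72 CPM in clone 1, 6.78, 7.12 and 7.55 CPM in clone 2, against 0.144, 0.0811 and 0.371 CPM in the control. Here clone 2 was the highest group, and no groups overlapped. The log2 fold change was 4.11 ± 0.31 in clone 1 (adjusted p 2.4e-07) and 5.12 ± 0.30 in clone 2 (adjusted p 3.0e-08); without replicate 3 of the control, which held 30 of the 46 control counts, the values were 4.95 and 5.97.

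Pcdhgb2 showed the reverse order of the clones. It had 10.5, 11.0 and 12.8 CPM in clone 1, 1.60, 1.71 and 1.79 CPM in clone 2, against 0.679, 0.473 and 0.519 CPM in the control. The log2 fold change was 4.36 ± 0.16 in clone 1 (adjusted p 4.0e-10) and 1.61 ± 0.17 in clone 2 (adjusted p 3.7e-06), or 20.6-fold and 3.05-fold.

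Pcdhgb8, which RefSeq lists as a transcribed pseudogene, had 2.55, 2.87 and 3.01 CPM in clone 1, 0.732, 1.03 and 0.843 CPM in clone 2, against 0.722, 0.662 and 0.643 CPM in the control. Its log2 fold change was 2.06 ± 0.18 in clone 1 (adjusted p 1.1e-06), whereas the value in clone 2, 0.36 ± 0.19, did not pass the test (adjusted p 0.111). The remaining B isoforms, Pcdhgb1, Pcdhgb4 and Pcdhgb5, had no count in any control library and were not tested. Pcdhgb1, named after its values were seen, had 10, 13 and 9 counts in clone 1 and 2, 4 and 0 counts in clone 2. Over the groups this was at least 11.2-fold higher in clone 1 and at least 1.89-fold higher in clone 2 than a floor of 3 counts in the control. The bounds are 5.59 and 0.945 against 3 read pairs, because most low counts in these data are even (71.4% of all values from 1 to 19 and 88.1% of those of the members), as when both mates of a pair are counted. Over 3 libraries, Pcdhgb4 had 4 counts in clone 1 and 6 in clone 2, and Pcdhgb5 had 8 in clone 1 and 10 in clone 2.

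The 12 A isoforms were low in all groups, with a summed level of 3.60 ± 0.215 CPM in clone 1, 1.83 ± 0.222 CPM in clone 2 and 0.434 ± 0.176 CPM in the control. Of these, 7 were tested, 7 were called higher in clone 1 and 5 in clone 2, and all 7 depended on libraries of the clones to pass the filter. The shares of all tested genes called higher were 37.9% in clone 1 and 37.3% in clone 2. Pcdhga11 led the subfamily in clone 1. It had 78, 98 and 114 counts in clone 1, 39, 30 and 20 counts in clone 2, and 6, 4 and 12 counts in the control, and the groups did not overlap. Its log2 fold change was 3.78 ± 0.37 in clone 1 (adjusted p 2.2e-06) and 1.92 ± 0.41 in clone 2 (adjusted p 0.0012).

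Other A isoforms, named after their values were seen, differed in which clone had more counts. Pcdhga8 had 19, 25 and 18 counts in clone 1, 4, 0 and 0 counts in clone 2, and none in the control, which is at least 21.7-fold higher in clone 1 than a floor of 3 counts over the control libraries, or 10.8-fold against 3 read pairs. Pcdhga5 had 36, 34 and 24 counts in clone 1, 8, 6 and 12 counts in clone 2, and 0, 2 and 2 counts in the control. Pcdhga10 had 18, 12 and 27 counts in clone 1, 2, 2 and 4 counts in clone 2, and 0, 0 and 4 counts in the control, all of the last in replicate 3. These 3 isoforms were high in clone 1 and at 12 counts or fewer in each library of the other groups. In clone 2 the log2 fold change of Pcdhga5 was 2.51 ± 0.71 (adjusted p 0.00761) and that of Pcdhga10 was 0.87 ± 1.12 (adjusted p 0.497); without replicate 3 of the control, which held all its control counts, the fitted value was 4.39 (adjusted p 0.0558) and is no measured size.

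Pcdhga1 and Pcdhga4 had more counts in clone 2 than in clone 1. Pcdhga1 had 20, 16 and 38 counts in clone 1, 51, 36 and 38 counts in clone 2, and 2, 10 and 8 counts in the control. Pcdhga4 had 28, 19 and 10 counts in clone 1, 37, 36 and 16 counts in clone 2, and 0, 6 and 4 counts in the control. The clones overlapped in both, and neither overlapped the control. In the direct comparison of the clones, Pcdhga1 and Pcdhga4 were not called. Their log2 differences, clone 2 minus clone 1, were 0.58 ± 0.42 and 0.47 ± 0.54 (adjusted p 0.257 and 0.48, edgeR quasi-likelihood test). Against the control they differed by 1.96 ± 0.52 and 2.56 ± 0.73 (log2) in clone 1 (adjusted p 0.00495 and 0.00774) and 2.54 ± 0.50 and 3.03 ± 0.70 in clone 2 (adjusted p 0.000689 and 0.00217). Without replicate 2 of the control, Pcdhga4 had 3.27 in clone 1 and 3.74 in clone 2. The call of Pcdhga4 in clone 1 was lost without the first library of every group (1.58, adjusted p 0.0614). Pcdhga12 had 19, 24 and 18 counts in clone 1, 11, 14 and 6 counts in clone 2, and 4, 4 and 4 counts in the control; its call in clone 2 (log2 fold change 1.26 ± 0.50, adjusted p 0.0377) was lost in 13 of 16 alternative analyses, with adjusted p up to 0.17. Pcdhga2, Pcdhga3, Pcdhga6, Pcdhga7 and Pcdhga9 had at most 12 counts in any library and were not tested.

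The makeup of the gamma cluster outside Pcdhgc3 differed between all 3 groups. Pcdhgc3 itself took 91.1 ± 0.334% of the gamma counts in clone 1, 92.7 ± 0.227% in clone 2 and 96.1 ± 0.158% in the control, with no overlap between groups. Of the rest, per kilobase of variable exon, Pcdhgb2 held 35.7 ± 1.87%, Pcdhgb7 27.0 ± 0.0856% and Pcdhgb6 10.9 ± 0.586% in clone 1. In clone 2, Pcdhgb7 held 45.0 ± 2.63%, Pcdhgb6 31.2 ± 1.93% and Pcdhgb2 7.48 ± 0.405%. In the control, Pcdhgb8 led with 26.6 ± 3.77%, ahead of Pcdhgb2 with 20.996 ± 5.49% and Pcdhgb7 with 19.9 ± 2.50%, and these 3 overlapped between libraries. The effective number of members (the inverse Simpson index, the number of equally abundant members that would give the same unevenness) was 4.44 ± 0.235 in clone 1, 3.23 ± 0.179 in clone 2 and 5.87 ± 1.16 in the control on this scale. The control value rests on 173, 199 and 242 counts per library, against 2088, 2367 and 2420 counts in clone 1 and 1791, 1874 and 1827 counts in clone 2. The effective numbers of clone 1 and the control overlapped, at 4.69 in replicate 1 of clone 1 and 4.66 in replicate 1 of the control. Between 19 and 20 of the 22 gamma members had a count in a library of clone 1, 20 to 21 in clone 2 and 11 to 17 in the control.

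**Figure D4:**
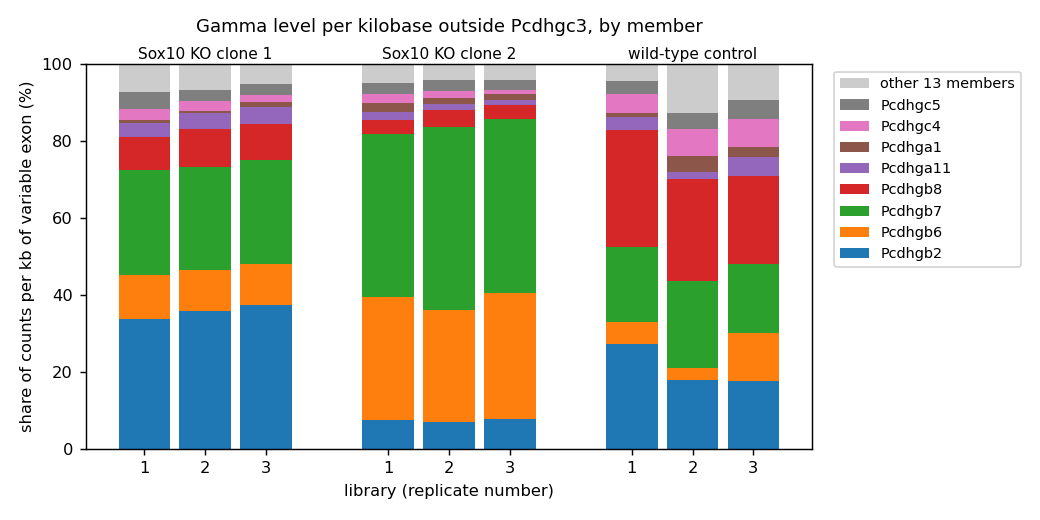
Share of each member in the summed gamma level per kilobase of variable exon without Pcdhgc3 (vertical axis, percent) in each of the 9 libraries, grouped as clone 1, clone 2 and control. Pcdhgb2 and Pcdhgb7 fill most of the clone 1 columns (35.7% and 27.0% on average), Pcdhgb7 and Pcdhgb6 most of the clone 2 columns (45.0% and 31.2%), and no member exceeds 26.6% on average in the control.

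The direct comparison of the clones asked whether they differ in these transcripts. Clone 2 was called lower than clone 1 for 10 of the 20 tested members and higher for 1, where 57.6% of all tested genes were called, 27.5% lower and 30.1% higher. The filter favoured such calls where a member passed through clone 1 alone, as did Pcdhga8 and Pcdhga10, so these counts support no shared direction between the clones. By edgeR's glmTreat, a difference past 2-fold was called for 4 members, all lower in clone 2, where 8.52% of all tested genes passed, 3.84% lower and 4.67% higher. Without replicate 3 of clone 2 there were 2 such members, and without replicate 1 of the control 6. Pcdhgb2 averaged 1.70 ± 0.0963 CPM in clone 2 and 11.5 ± 1.20 CPM in clone 1, 6.75-fold lower in clone 2 (log2 difference -2.75 ± 0.14, glmTreat adjusted p 6.0e-07). Pcdhgb8 averaged 0.869 ± 0.152 CPM in clone 2 and 2.81 ± 0.237 CPM in clone 1 (log2 difference -1.69 ± 0.18, glmTreat adjusted p 0.00378). Pcdhga11 averaged 0.374 ± 0.108 CPM in clone 2 and 1.37 ± 0.236 CPM in clone 1 (log2 difference -1.86 ± 0.30, glmTreat adjusted p 0.0228). Pcdhga8, with 4 counts in clone 2 and 62 counts in clone 1, had a ratio of 0.0581 (95% counting interval 0.00674 to 0.229, on read pairs). All 4 of these counts came from replicate 1 of clone 2, without which clone 2 is at 0.

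Pcdhgb6 was the single member called higher in clone 2, at 7.15 ± 0.384 CPM in clone 2 and 3.54 ± 0.262 CPM in clone 1 (log2 difference 1.01 ± 0.22, adjusted p 0.00216). Pcdhb17 averaged 0.190 ± 0.132 CPM in clone 2 and 0.758 ± 0.112 CPM in clone 1 (log2 difference -1.97 ± 0.40, adjusted p 0.00143; -2.68 without replicate 1 of clone 2). Pcdhga5, Pcdhga10, Pcdhga12, Pcdhgc4 and Pcdhgc5 were also called lower in clone 2, by log2 differences from -0.80 for Pcdhgc5 to -2.94 for Pcdhga10. The calls of Pcdhga12, Pcdhgc4 and Pcdhgc5 were lost when single libraries were left out: without replicate 1 of clone 1, their log2 differences were -1.12, -0.79 and -0.58, with adjusted p of 0.0697, 0.0862 and 0.0956. Leaving out replicate 3 of clone 2 had the same effect on all 3 (-0.85, -0.69 and -0.76, with adjusted p of 0.107, 0.0847 and 0.0565), leaving out replicate 2 of clone 1 on Pcdhga12 and Pcdhgc4 (-1.05 and -0.91), and leaving out replicate 1 of clone 2 on Pcdhga12 and Pcdhgc5 (-1.13 and -0.76). Pcdhb20 (-1.41 ± 0.60, adjusted p 0.0632) passed without replicate 3 of clone 1 (-1.73, adjusted p 0.0354) or of clone 2 (-2.14, adjusted p 0.0271). The B isoform Pcdhgb7 (log2 difference 0.24 ± 0.11, adjusted p 0.0907) and Pcdhgc3 (-0.18 ± 0.08, adjusted p 0.0855) did not pass. Leaving out 1 library brought each past the threshold: Pcdhgb7 without replicate 1 of clone 2 (0.34, adjusted p 0.0264), and Pcdhgc3 without replicate 1 of the control (-0.20, adjusted p 0.0221) or replicate 3 of the control (-0.18, adjusted p 0.0376). Both also passed without the first library of every group (0.32 and -0.19, adjusted p 0.0175 and 0.0022), and Pcdhgc3 with only the clones in the fit (-0.19, adjusted p 0.0208). With the replicate number as a block, both passed as well (0.24 and -0.18, adjusted p 0.0413 and 0.00089 in edgeR). Over all alternatives, the adjusted p ranged from 0.0175 to 0.432 for Pcdhgb7 and from 0.00089 to 0.246 for Pcdhgc3. These 2 calls thus depend on the libraries and the model used.

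The genes that flank the clusters went both ways. The list held 24 tested neighbours on chromosome 18; in clone 1, 6 were called higher, 9 lower and 9 neither way, with a median log2 fold change of -0.04. In clone 2, 7 were called higher, 7 lower and 10 neither way, with a median of -0.01. Among all tested genes, 37.9% were called higher and 38.6% lower in clone 1, and 37.3% and 37.1% in clone 2. The medians over all tested genes were 0.00 and 0.00, and those over the 338 other tested genes of chromosome 18 were 0.33 in clone 1 and 0.19 in clone 2. Less this chromosome median, the log2 fold change of Pcdhgc3 was 2.00 for clone 1 and 1.95 for clone 2.

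The counts of neighbours called higher depended on single libraries and were 3 in clone 1 without replicate 3 of the control and 4 in clone 2 without replicate 2 of clone 2 or replicate 1 of the control. Zmat2, which lies just before the alpha cluster, had log2 fold changes of -0.03 ± 0.05 and -0.08 ± 0.05 (adjusted p 0.593 and 0.163). Diaph1, a formin just past the gamma cluster, had 0.03 ± 0.06 and -0.17 ± 0.06 (adjusted p 0.679 and 0.0261). Between the beta and gamma clusters, Taf7, a subunit of the general transcription factor TFIID, averaged 6.47 CPM in clone 1, 6.19 CPM in clone 2 and 5.30 CPM in the control, and was not called. Its neighbour Slc25a2, a mitochondrial ornithine carrier, averaged 0.252 CPM in clone 1, 0.141 CPM in clone 2 and 0.0576 CPM in the control, with a log2 fold change of 2.10 ± 0.59 in clone 1 (adjusted p 0.00675) and 1.25 ± 0.63 in clone 2 (adjusted p 0.0917). Slc25a2 stood at 0.0289, 0.0946 and 0.0494 CPM in the control libraries, all below the count filter. It depended on libraries of the clones to pass, which favours a higher value there. The lowest neighbour was Arap3, at -2.05 ± 0.13 in clone 1 and -1.94 ± 0.12 in clone 2.

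**Figure D5:**
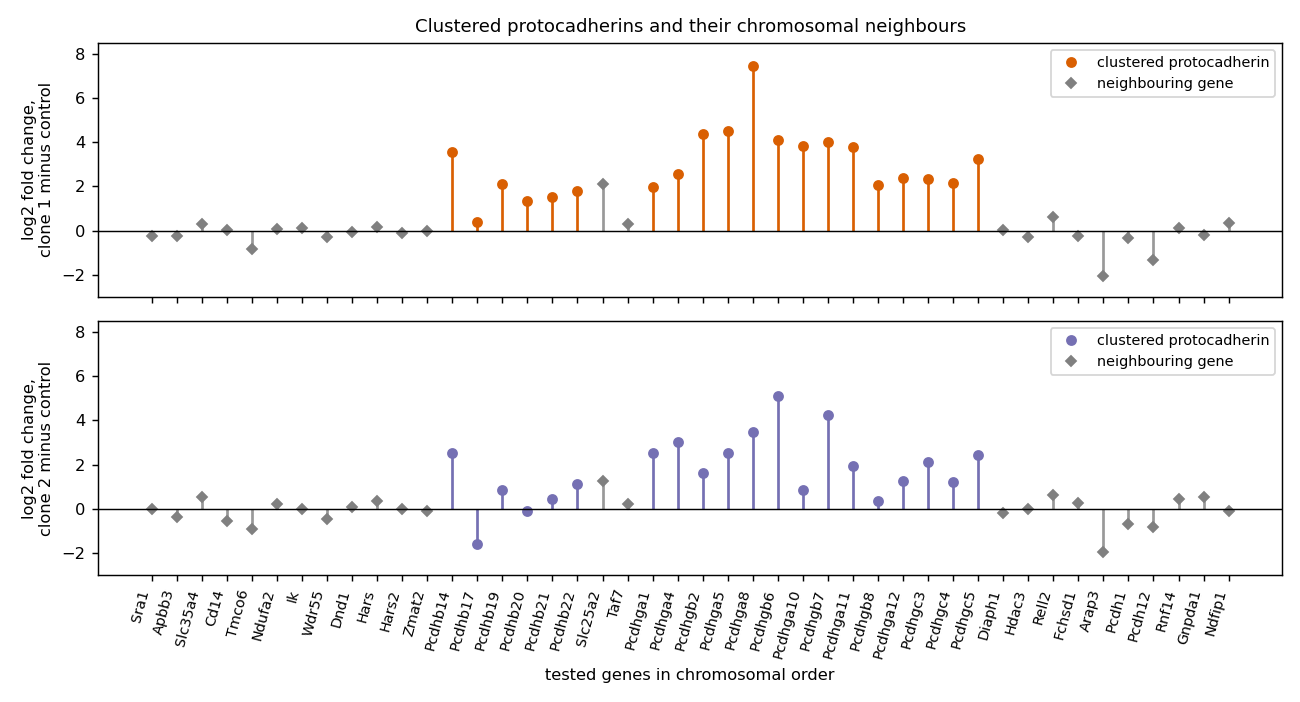
Log2 fold change against the control (vertical axes) of the tested clustered protocadherins and of 24 neighbouring genes in chromosomal order, for clone 1 (top) and clone 2 (bottom). Neighbours range from -2.05 (Arap3) to 2.10 (Slc25a2, which passed the count filter through libraries of the clones) in clone 1 and lie about 0 at both ends of the clusters. The 14 tested gamma members lie above 0 in both panels. Of these, 9 depended on libraries of the clones to pass the count filter, which favours values above 0. The value of Pcdhga8 has no count in the control behind it.

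The nonclustered protocadherins and their large atypical relatives of the Celsr, Fat and Dchs families went both ways. Of 21 genes, 14 were tested: 6 were called higher and 5 lower in clone 1, 4 were called higher and 6 lower in clone 2, and the median log2 fold changes were -0.05 and -0.44. All tested genes also went both ways, with 37.9% higher and 38.6% lower in clone 1, and 37.3% and 37.1% in clone 2. Pcdh19, an X-linked protocadherin of delta type, averaged 69.7 CPM in clone 1, 32.1 CPM in clone 2 and 2.27 CPM in the control (log2 fold changes 4.94 ± 0.09 and 3.82 ± 0.08). Celsr2, a planar polarity cadherin, averaged 12.9, 15.0 and 0.460 CPM in the same order (4.81 ± 0.12 and 5.02 ± 0.12), while its relative Celsr1 averaged 0.626, 3.13 and 109 CPM (-7.46 ± 0.19 and -5.12 ± 0.16). A pair of relatives went opposite ways in the clones. Pcdh9 averaged 14.1 CPM in clone 1, had no count in clone 2 and averaged 0.0806 CPM in the control, and Fat2 averaged 20.4 CPM in clone 1, 0.201 CPM in clone 2 and 7.40 CPM in the control.

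Genes known to act on clustered protocadherin promoters were followed as a group. Of 11 genes of CTCF and the cohesin complex, which loop these promoters to their enhancers, 8 were called higher and 0 lower in clone 1, with a median log2 fold change of 0.47, and 1 was called higher and 3 lower in clone 2, with a median of 0.08. The largest called change was that of the cohesin loader Nipbl in clone 1 (1.22 ± 0.21), which was 0.38 ± 0.21 in clone 2 (adjusted p 0.12), and Mau2, its partner, went opposite ways (0.33 ± 0.05 and -0.14 ± 0.05). These counts stand against 37.9% higher and 38.6% lower of all tested genes in clone 1, and 37.3% and 37.1% in clone 2. The count of 1 in clone 2 was 6 without the first library of every group and varied from 0 to 4 as single libraries were left out, being 4 without replicate 1 of the control and 0 without replicate 1 or 3 of clone 2 or replicate 2 or 3 of the control. Of 17 genes of DNA methylation, repression and activation, 7 were called higher and 6 lower in clone 1, and 6 higher and 6 lower in clone 2, with medians of 0.05 and -0.10. Tet1, a DNA demethylating enzyme, averaged 0.694 CPM in clone 1, 0.676 CPM in clone 2 and 0.0269 CPM in the control, and Tet2 averaged 47.0, 22.9 and 7.59 CPM in the same order. Dnmt3b, the de novo methyltransferase that acts on these promoters in the mouse embryo, averaged 0.228 CPM in clone 1, had no count in clone 2 and averaged 0.922 CPM in the control. Dnmt3a went opposite ways, with log2 fold changes of 0.24 ± 0.06 and -0.27 ± 0.06. Whether any of these levels bears on the protocadherins was not tested.

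Transcripts of proteins that act with or on the protocadherins at the membrane were called in both directions, as were all tested genes. Of 16 tested signalling partners, 9 were called higher and 5 lower in clone 1, and 8 higher and 7 lower in clone 2. These counts and those of the shedding genes below stand against the shares of all tested genes. Those shares were 37.9% higher and 38.6% lower in clone 1, and 37.3% and 37.1% in clone 2. Ptk2b (Pyk2), a kinase that gamma protocadherins restrain in mouse neurons, averaged 78.1 CPM in clone 1, 96.0 CPM in clone 2 and 19.5 CPM in the control (2.00 ± 0.09 and 2.30 ± 0.09). Fyn, a Src family kinase, averaged 12.3 CPM in clone 1, 0.0842 CPM in clone 2 and 7.77 CPM in the control, opposite ways in the clones, as did Brk1, a subunit of the WAVE actin-regulating complex (-0.39 ± 0.05 and 0.21 ± 0.05). Ret, a receptor kinase that phosphorylates protocadherins in mouse neurons, averaged 0.275 CPM in the control and was lower in both clones. Of the 7 genes for shedding and gamma-secretase cleavage, 1 was called higher and 5 lower in clone 1, and 2 higher and 2 lower in clone 2. Adam10, which sheds the protocadherin extracellular part, averaged 240 CPM in clone 1, 225 CPM in clone 2 and 122 CPM in the control (0.97 ± 0.11 and 0.88 ± 0.10), and Aph1b, a gamma-secretase subunit, went opposite ways (-0.84 ± 0.16 and 0.56 ± 0.15).

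How reads were shared between members bears on the levels above. In the GENCODE annotation of this build, 35 of the 36 alpha and gamma members had a gene of the same symbol, and each of the 35 shared exon bases with other members, as did the beta pair Pcdhb21 and Pcdhb22. Pcdhga4 and Pcdhgb1 shared 3157 and 3154 bases with other members, against 2119 for Pcdhgb2. Pcdhga4 had 1570 bases of its own, fewer than the 2608 of its variable exon, so its variable exon is partly shared too. A read in a shared constant exon cannot be assigned to a member by its position. The treatment of such reads in the counting is not stated in the sources used here, but members at or near 0 counts beside Pcdhgc3 at 20632 to 25395 counts per library of the clones show that they were not credited to every member. Whether part of the Pcdhgc3 counts stems from the constant exons was not tested. Antisense genes overlap Pcdhgc3, several A isoforms and, of the B isoforms, Pcdhgb7 alone. Since the strand setting of the counting is not given, reads from a gene and its antisense partner cannot be told apart. The readthrough loci Gm37013, Gm38666 and Gm38667, which join exons across the clusters, had no count in any library. In GENCODE, Gm37013, Gm37388, Gm38182 and Gm42416 overlap every gamma member on the same strand. The counts of Gm37388, Gm38182 and Gm42416 were not looked at. Beta genes and the variable exons within a gamma subfamily resemble each other in sequence, and reads from close copies may be split between them.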

How the data were processed

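Polyadenylated RNA of 9 libraries (3 per group) was sequenced, per the labels' protocols. The authors deposited whole-number counts per gene, without normalization, by Entrez gene ID; the submitters' processing notes name fastp, Subread and DESeq2 and the builds mm10 and GRCm38, without versions. The annotation and counting settings are not stated in the sources used here. Symbols and positions came from RefSeq tables (GRCm38), and exon lengths from GENCODE. Of 24594 genes, 24570 carried a symbol, and genes with none, at most 0.202% of a library, stayed in the totals. The table held 0 columns of other samples.

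In R 4.3.3, genes were kept by filterByExpr (edgeR 4.0.16, minimum count 10), leaving 13928. A quasi-likelihood model of the 3 groups was fitted to all 9 libraries after TMM scaling. Each clone was compared with the control and clone 2 with clone 1, each with Benjamini-Hochberg adjustment over all 13928 genes and a threshold of 0.05; differences past 2-fold between clones used glmTreat. Standard errors of log2 fold changes were derived from the F statistic of the test (absolute value divided by the root of F). Cluster sums, shares and effective numbers are descriptions without a test. Ratios of low counts carry exact 95% intervals on read pairs. Intervals and floors cover counting error only. The fit was checked on simulated counts with known changes. Alternatives were other filters and normalizations, DESeq2 1.42.0, a replicate block, only the groups compared, each library left out, the first libraries left out together and halved counts, the last 2 added after the data were seen.

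Members and lists were chosen with earlier results of these data known. Named members were those of at least 1 CPM in any group, the leaders of each cluster and those called in opposite directions; list genes were drawn from the 3 called genes of each list with the largest mean change over the clones and up to 2 called in opposite directions. Other genes (neuronal markers at 0, markers named as seen, and genes beside the clusters) were named after their values were seen. Promoter and protein features were not analysed here.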

Additional observations from a re-analysis of the deposited data

Results flagged for a closer look

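In 4 members the effect in clone 2 differed from that in clone 1 past 2-fold by a test of the difference itself (edgeR glmTreat, 3 libraries per clone). The fitted log2 difference, clone 2 minus clone 1, was -2.754 for Pcdhgb2 (402 counts in clone 2 and 2429 counts in clone 1), -3.991 for Pcdhga8 (4 and 62 counts, all 4 in replicate 1 of clone 2; -7.48 to -3.46 over the alternatives), -1.865 for Pcdhga11 (89 and 290 counts) and -1.694 for Pcdhgb8 (205 and 597 counts). In each, all 3 libraries of clone 2 lay below all 3 of clone 1. Pcdhga8 passed the count filter through clone 1 alone, so a lower value in clone 2 was favoured beforehand and its fitted difference is no measured size. Each clone is a single clone, so a difference between these clones and a difference between clones in general cannot be told apart.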

How the results depend on the processing

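None of the named members or list genes changed direction where called. The counts of members higher in clone 1 were 1 beta (main 3) and 8 gamma (main 14) with a minimum count of 50, and those in clone 2 were 1 beta (main 2) and 7 gamma (main 11), since fewer members were tested; 5 gamma members were lower in clone 2 than in clone 1 under this filter (main 9). Leaving out the first library of all 3 groups left 0 beta members higher in clone 2, and halved counts left 1. Clone 2 was lower than clone 1 in 2 beta members without a filter or with halved counts (main 1), and 2 gamma members were higher in clone 2 without the first libraries (main 1). With DESeq2, 2 members were past 2-fold lower (main 4). With single libraries left out, beta members ranged from 3 to 4 higher in clone 1, from 1 to 2 higher in clone 2 and from 1 to 2 lower in clone 2 than in clone 1; gamma members ranged from 14 to 15, from 10 to 12 and from 6 to 11 in the same comparisons, with 1 to 2 higher in clone 2, and 2 to 6 members were past 2-fold lower. The cause of these shifts was not tested.

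With the replicate number as a block, 2 gamma members were higher in clone 2 than in clone 1 (main 1), 5 genes of CTCF and cohesin were higher in clone 2 than in the control (main 1) and 10 genes of DNA methylation were lower there (main 6). Pcdhgc3 and Pcdhgb7 then passed between the clones (log2 difference -0.18 and 0.24, adjusted p 0.00089 and 0.0413 in edgeR). The labels number the replicates without saying what the numbers share. Same-numbered libraries correlated at 0.0143 to 0.249, and not every library correlated best with its own number.

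Among the lists, CTCF and cohesin genes higher in clone 2 numbered 2 without a filter, 2 with DESeq2, 6 without the first libraries and 0 to 4 with single libraries left out, and those lower 1 to 3. Genes of DNA methylation lower in clone 2 numbered 6 to 8 with single libraries left out, and neighbours higher 3 to 6 in clone 1 and 4 to 7 in clone 2. Neuronal markers higher in clone 1 numbered 1 with only the 2 groups compared and 1 to 2 with single libraries left out, and those lower 1 to 2 in each clone, with 2 in clone 2 with only the 2 groups compared or halved counts. Endothelial and immune markers lower in clone 1 numbered 1 without the first libraries and 0 to 1 with single libraries left out (main 0). Per kilobase of GENCODE exon, a length beyond its RefSeq span, Pcdhb22 held 25.8% of the beta total in clone 1. Its share of the counts was 32.9% there, and 29.4 to 35.6% with single libraries left out. Over all alternatives, 1028 values of single members kept their side of the threshold, 36 lost a call, 15 gained one and 10 shifted by more than their standard error with the chromosome median removed. Members under about 10 counts a library are limited by depth.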
